A study of Mus musculus with 9 samples.

Results

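The kinesins are motor proteins that walk along microtubules or take them apart, and they are examined here as a gene family in cells of mouse bile duct organoids. Members were all genes whose symbol begins with Kif and goes on with a number, or begins with Kifc and goes on with a digit, each with at most 1 further letter. This rule found 41 of the 32137 genes in the deposited tables, and all 41 passed the filter on low counts that left 17011 genes to test. By known function 13 are called mitotic kinesins, 15 transport kinesins and 13 other kinesins here. These classes were set with earlier results of these data known, and Kif2a, which also works at spindle poles, was placed among the other kinesins. RNA was sequenced from 9 libraries of sorted cells, made from differentiated organoids of 1 male mouse of mixed genetic background with the genotype Axin2CreERT2+/-; R26-LSL-tdTom+/-. Cells that express Axin2 while 4-hydroxytamoxifen is present, and their later progeny, carry the tdTomato reporter. All organoids received 3 uM dexamethasone and 500 nM 4-hydroxytamoxifen in the last 24 h of 11 days of differentiation. The 3 groups were tdTomato-negative cells without R-spondin 1 (untreated), tdTomato-negative cells with 100 ng/ml R-spondin 1 (Rspo1-negative) and tdTomato-positive cells with 100 ng/ml R-spondin 1 (Rspo1-positive). R-spondin 1 is a secreted protein that strengthens Wnt signalling. Each group was sampled once at organoid passages 5, 6 and 10, so that the 3 libraries of a group are repeated cultures of 1 line and not separate animals. There was no group of tdTomato-positive cells without R-spondin 1, so gate and treatment cannot be told apart where Rspo1-positive and untreated cells are compared.

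Kinesins share a motor domain that turns ATP hydrolysis into movement. Mitotic kinesins build the bipolar spindle, carry and align chromosomes, trim spindle microtubules and organise the midzone where the cell divides. Their genes are transcribed mainly late in the cell cycle, and their transcripts are scarce in resting cells. Transport kinesins carry vesicles, mitochondria, endosomes and ciliary components in dividing and resting cells alike, which in bile duct epithelium includes the primary cilium and delivery to the apical surface.

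Promoters of the kinesin genes are shown first, because the mitotic and the transport kinesins differ in their letters around the start of transcription. Windows from 250 bases before to 50 bases after the annotated start were taken from RefSeq for GRCm38.p6, and 32 of the 41 genes had one or more, giving 36 windows. Each was searched on both strands for 3 motifs. The cell cycle genes homology region (CHR), an element known from promoters of genes active in mitosis, was searched as TTTGAA or TTCGAA. Also searched were CCAAT and the E2F motif as TTTCCCGC or TTTGGCGC, and none of the 3 contains another. CHR letters were in 11 of 12 windows of mitotic kinesins (91.7%), in 1 of 12 of transport kinesins (8.33%) and in 3 of 12 of other kinesins (25%). Of all 32851 promoter windows of this length, 19.2% held them. With the first base of the match at most 30 bases from the start site, a limit chosen after the positions had been seen, the counts were 9, 0 and 2 of 12, and the share of all windows was 3.45%. CCAAT was in 8 of 12 mitotic windows (66.7%), 4 of 12 transport windows (33.3%) and 37.4% of all windows. E2F letters were in 2 mitotic windows, those of Kif15 and Kif18a, in no other kinesin window and in 1.56% of all windows. The windows are not all independent. Kifc1 and Kifc5b share a stretch around their CHR letters, so the same sequence counts for each. The 12 transport windows come from 10 genes, and those of Kif1b overlap and hold the same CCAAT sites. For Kif14, Kif2c, Kif27 and Kif1a the windows with CHR letters belong to start sites well inside the annotated gene, not at its outer end. A match describes letters and does not show that a factor binds there.

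The following stretches run from 40 bases before to 29 bases after the start site, 5′ to 3′ on the strand of the gene, with CHR letters of either orientation in capitals. The first 6 are mitotic kinesins with CHR letters close to the start, Kif18a is the 1 mitotic window without any, and Kif3a and Kif16b are transport kinesins. In GRCm38.p6 coordinates they lie at chr19:37376342-37376411 (Kif11, plus strand), chr9:122951041-122951110 (Kif15, plus), chr11:102925095-102925164 (Kif18b, minus), chr19:34922318-34922387 (Kif20b, plus), chr7:127042391-127042460 (Kif22, minus), chr9:61946770-61946839 (Kif23, minus), chr2:109280698-109280767 (Kif18a, plus), chr11:53567329-53567398 (Kif3a, plus) and chr2:142901435-142901504 (Kif16b, minus).
Kif11: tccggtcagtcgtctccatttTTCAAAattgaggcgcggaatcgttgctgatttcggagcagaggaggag
Kif15: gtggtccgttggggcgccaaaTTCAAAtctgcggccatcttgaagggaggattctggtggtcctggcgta
Kif18b: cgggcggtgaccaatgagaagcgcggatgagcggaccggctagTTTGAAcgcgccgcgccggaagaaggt
Kif20b: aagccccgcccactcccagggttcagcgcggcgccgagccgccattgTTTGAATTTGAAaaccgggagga
Kif22: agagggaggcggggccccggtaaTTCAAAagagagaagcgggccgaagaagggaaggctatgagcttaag
Kif23: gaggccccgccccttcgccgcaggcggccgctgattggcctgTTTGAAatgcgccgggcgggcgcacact
Kif18a: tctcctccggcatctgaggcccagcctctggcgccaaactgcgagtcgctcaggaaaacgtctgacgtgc
Kif3a: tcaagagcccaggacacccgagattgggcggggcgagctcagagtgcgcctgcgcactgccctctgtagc
Kif16b: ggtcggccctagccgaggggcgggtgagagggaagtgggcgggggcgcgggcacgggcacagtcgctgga
The CHR letters begin at -19 in Kif11 and Kif15, at -17 in Kif22, at 2 in Kif23 and at 3 in Kif18b, counted from 0 at the start site. Kif20b holds 2 copies side by side, beginning at 7 and 13.

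Total counts per library ranged from 23423979 to 37351448. Axin2, the gene behind the sort, stood at 1.32 to 5.96 CPM (read counts scaled to library size with TMM factors) in untreated, 44.4 to 124 in Rspo1-negative and 75.7 to 155 in Rspo1-positive libraries, and the libraries of the 2 treated groups overlap. All 7 duct markers had counts in every library, and their summed level was 6879 to 8679 CPM in untreated, 6955 to 9076 in Rspo1-negative and 5891 to 6054 in Rspo1-positive libraries, lowest in the last group. In Rspo1-positive against untreated cells 2 duct markers were called higher, 1 lower and 4 were not called. Summed mesenchyme markers reached 0.95 CPM and endothelial markers 0.80 CPM at most. The blood cell markers summed to 45.5 to 68.1 CPM, nearly all from Csf1r (37.2 to 56.1 CPM) and Cd68 (5.34 to 23 CPM), while Ptprc, which marks blood cells in general, reached 0.133 CPM. Of the 2 blood cell markers tested, Cd68 was lower in Rspo1-positive cells than in either other group (-0.71 and -0.61, edgeR, adjusted p = 0.0153 and 0.0148). Hepatocyte markers summed to 164 to 545 CPM, and 1 of the 3 tested was called in Rspo1-positive against untreated cells (lower), 2 in Rspo1-positive against Rspo1-negative cells (lower) and 0 in Rspo1-negative against untreated cells. Of all genes tested 13.2%, 38.9% and 35.5% were called in these comparisons. The 5 proliferation markers summed to 98 to 153 CPM in untreated, 211 to 238 in Rspo1-negative and 494 to 640 in Rspo1-positive libraries. The part of these marker differences in the kinesin results was not tested. These are RNA levels of pooled cells, in which fewer dividing cells and less RNA per dividing cell cannot be told apart.

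The first question is how kinesins differ between cells that carry the reporter under R-spondin 1 and cells of untreated organoids. All 13 mitotic kinesins had more RNA in the Rspo1-positive group than in the untreated one, by 2.04-fold (Kif23) to 11.9-fold (Kif15). Kif2a, classed with the other kinesins, was not called (0.13, edgeR, adjusted p = 0.673). None of the 15 transport kinesins was called higher, and 1, Kif5c, was called lower. A gene is called here when its adjusted p is under 0.05 by edgeR's quasi-likelihood test with passage as a block and Benjamini-Hochberg adjustment over all 17011 genes. Of those genes 13.2% were called in this comparison, 6.44% higher and 6.77% lower. The median log2 fold change was 2.70 for mitotic and -0.06 for transport kinesins, against -0.0017 over all genes tested. Within passages 5, 6 and 10 the median difference of the mitotic kinesins was 2.63, 2.47 and 2.88, and 13 of 13 were above 0 in each passage. All 13 mitotic calls held in each of 17 alternative analyses. In the authors' deposited table of this comparison 13 of 13 mitotic kinesins are higher as well, and of the 12 transport kinesins listed there 0 are higher and 1 is lower. That gene is Kif13b (-0.43, adjusted p = 0.0496 in the authors' deposited table), which was not called here (-0.44, edgeR, adjusted p = 0.115), and Kif5c has no value there. Shares of all genes past an adjusted p of 0.05 in the authors' tables are not given here.

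**Figure D1:**
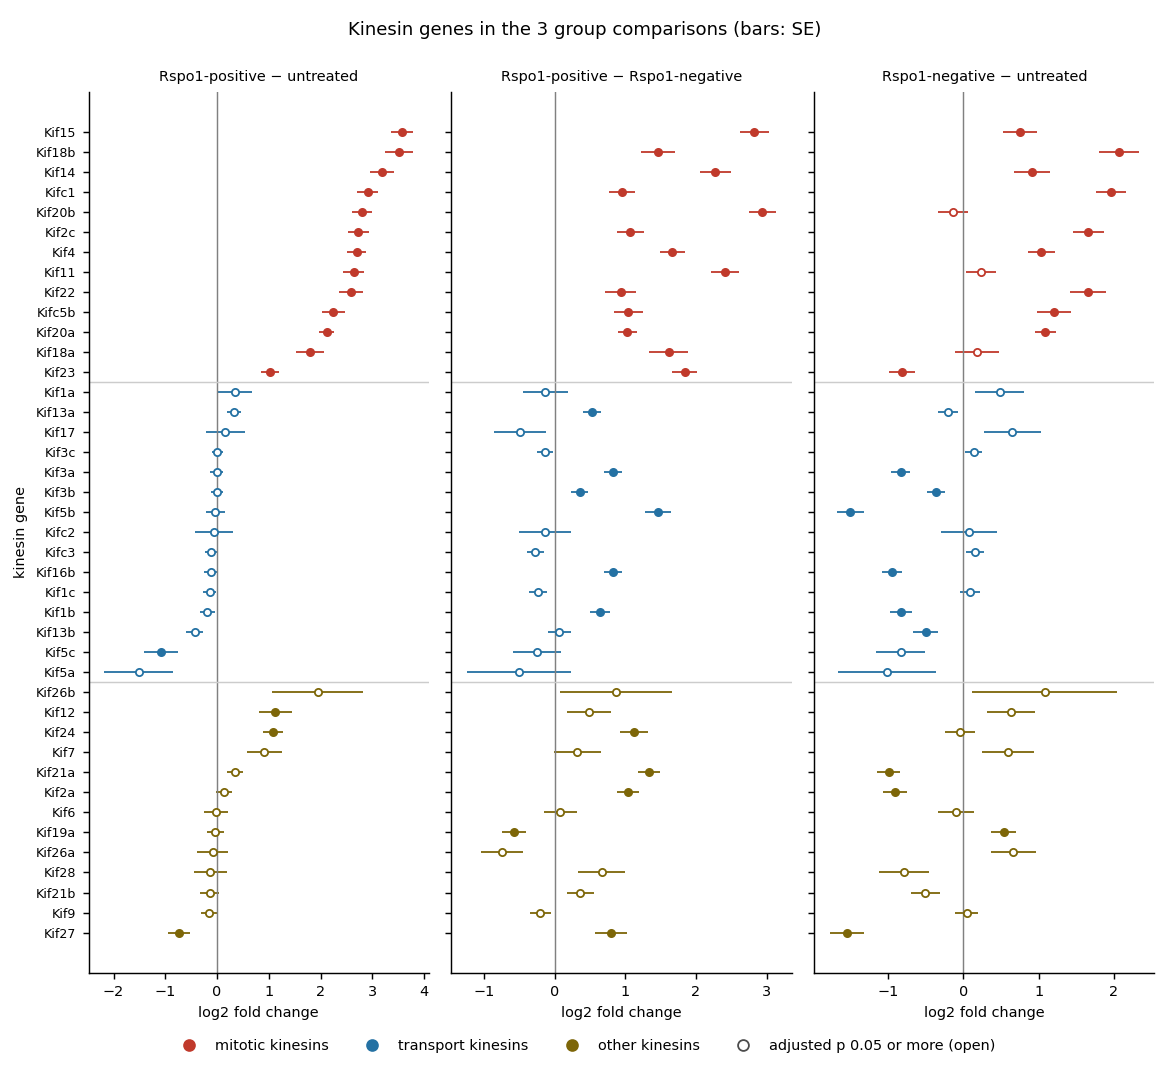
Log2 fold change (x axis) of each of the 41 kinesin genes (y axis) in the 3 group comparisons, with bars for the standard error; filled points have an adjusted p under 0.05 by edgeR. In the left and middle panels all 13 mitotic kinesins (red) are filled and to the right of 0, while 14 of 15 transport kinesins (blue) are open in the left panel.

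Among the motors that build the spindle, Kif11 (ENSMUSG00000012443, chromosome 19, 37376403 to 37421859, plus strand, GRCm38) is the motor that pushes the spindle poles apart. At passages 5, 6 and 10 Kif11 stood at 3.32, 10.9 and 4.23 CPM in untreated, 4.60, 9.05 and 6.44 CPM in Rspo1-negative and 26.5, 46.2 and 32.4 CPM in Rspo1-positive cells. The lowest Rspo1-positive library lies above every other library, and untreated and Rspo1-negative libraries overlap. Its log2 fold change was 2.64 against untreated cells (SE 0.20, edgeR, adjusted p = 9.81e-06) and 2.41 against Rspo1-negative cells (SE 0.20, adjusted p = 9.19e-05). Kif15 (ENSMUSG00000036768, chromosome 9, 122951046 to 123018733, plus strand), a motor that can keep the spindle bipolar beside Kif11, had the largest fold change of the family. Kif15 stood at 0.892, 0.903 and 1.12 CPM in untreated, 1.38, 1.93 and 1.65 CPM in Rspo1-negative and 8.74, 14.9 and 12.1 CPM in Rspo1-positive cells. The 3 groups do not overlap, and the step up to the Rspo1-positive cells is the larger one. Its log2 fold changes were 3.58 against untreated (SE 0.21, edgeR, adjusted p = 3.66e-06) and 2.82 against Rspo1-negative cells (SE 0.20, adjusted p = 4.78e-05). Kifc1, a minus-end motor that gathers spindle microtubules at the poles, stood at 2.03, 3.81 and 1.78 CPM in untreated, 8.06, 10.8 and 9.32 CPM in Rspo1-negative and 13.8, 29.0 and 14.9 CPM in Rspo1-positive cells. Its near copy Kifc5b stood at 1.02, 1.61 and 0.863 CPM, at 2.58, 3.21 and 2.07 CPM and at 4.23, 8.37 and 4.25 CPM in the same order. Both climb from untreated over Rspo1-negative to Rspo1-positive cells without overlap, by 2.91 and 2.25 from the first to the last. Of the 75-base stretches of Kifc1 33.5% also occur in Kifc5b, so reads may be split between the pair and the values of each are uncertain.

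The mitotic kinesins that bind chromosomes or shorten spindle microtubules, Kif4, Kif22, Kif2c, Kif18b and Kif18a, rose as well. Kif4, a chromosome-bound motor that also works with Prc1 at the midzone, stood at 2.28, 5.32 and 2.53 CPM in untreated, 5.06, 7.98 and 6.73 CPM in Rspo1-negative and 15.6, 29.3 and 19.3 CPM in Rspo1-positive cells. Kif22, which pushes chromosome arms away from the poles, stood at 2.46, 6.15 and 2.85 CPM, then 7.37, 12 and 15.2 CPM, then 13.4, 34.4 and 21.5 CPM. For Kif22 the lowest Rspo1-positive library lies below the highest Rspo1-negative library, the only such overlap between these groups among the mitotic kinesins. Kif2c, which removes wrongly attached microtubules at centromeres, stood at 2.28, 4.18 and 2.56 CPM in untreated, 6.81, 10.5 and 10.5 CPM in Rspo1-negative and 13.4, 32.1 and 16.4 CPM in Rspo1-positive cells. Kif18b, which shortens astral microtubules, stood at 0.708, 3.34 and 1.01 CPM, then 4.21, 8.15 and 6.35 CPM, then 12.9, 26.5 and 13.5 CPM. Kif2c and Kif18b rise in 2 steps that do not overlap. Log2 fold changes of Rspo1-positive against untreated cells were 2.70 for Kif4, 2.59 for Kif22, 2.73 for Kif2c and 3.52 for Kif18b, with adjusted p-values by edgeR of 5.82e-06 to 3.45e-05. Kif18a, which damps chromosome movement at the metaphase plate, stood at 0.892 to 1.67 CPM in untreated, 1.02 to 1.65 CPM in Rspo1-negative and 3.11 to 5.63 CPM in Rspo1-positive cells. It rose by 1.80 (SE 0.28, edgeR, adjusted p = 0.00132) against untreated cells.

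The motors of the midzone and of cytokinesis did not share 1 pattern. Kif20a, which brings the chromosomal passenger complex to the midzone, stood at 8.65, 19.4 and 11.5 CPM in untreated, 19.7, 33.3 and 28.3 CPM in Rspo1-negative and 37.2, 85.1 and 50.1 CPM in Rspo1-positive cells. Kif14, which recruits citron kinase to the midbody, stood at 0.677, 2.71 and 0.806 CPM, then 1.60, 3.50 and 2.07 CPM, then 7.41, 18.6 and 9.46 CPM. Both rose against untreated cells, Kif20a by 2.12 and Kif14 by 3.19 (edgeR, adjusted p = 5.55e-06 and 7.33e-06). Kif20b, a motor needed to complete cytokinesis, stood at 2.00, 3.61 and 1.87 CPM in untreated, 2.26, 2.88 and 1.48 CPM in Rspo1-negative and 12.9, 24.4 and 14.6 CPM in Rspo1-positive cells, so that only the last group stands apart. Kif23 (ENSMUSG00000032254, chromosome 9, 61915905 to 61946774, minus strand), the motor of centralspindlin, which it forms with Racgap1, stood at 37.7, 40.1 and 46.9 CPM in untreated, 18.7, 33 and 22.0 CPM in Rspo1-negative and 65.3, 124 and 76.3 CPM in Rspo1-positive cells. The 3 groups of Kif23 do not overlap, and the Rspo1-negative libraries are the lowest. Kif23 rose by 1.03 against untreated cells (SE 0.17, edgeR, adjusted p = 0.00219), the smallest rise of the class. Per transcript length it was the highest mitotic kinesin in untreated cells, at 12 FPKM (fragments per kilobase of transcript, scaled to depth, the authors' values), where it made up 41.6% to 61.8% of the summed mitotic kinesin FPKM. In Rspo1-negative and Rspo1-positive libraries that share was 19.8% to 24.7% and 28.0% to 30.2%.

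**Figure D2:**
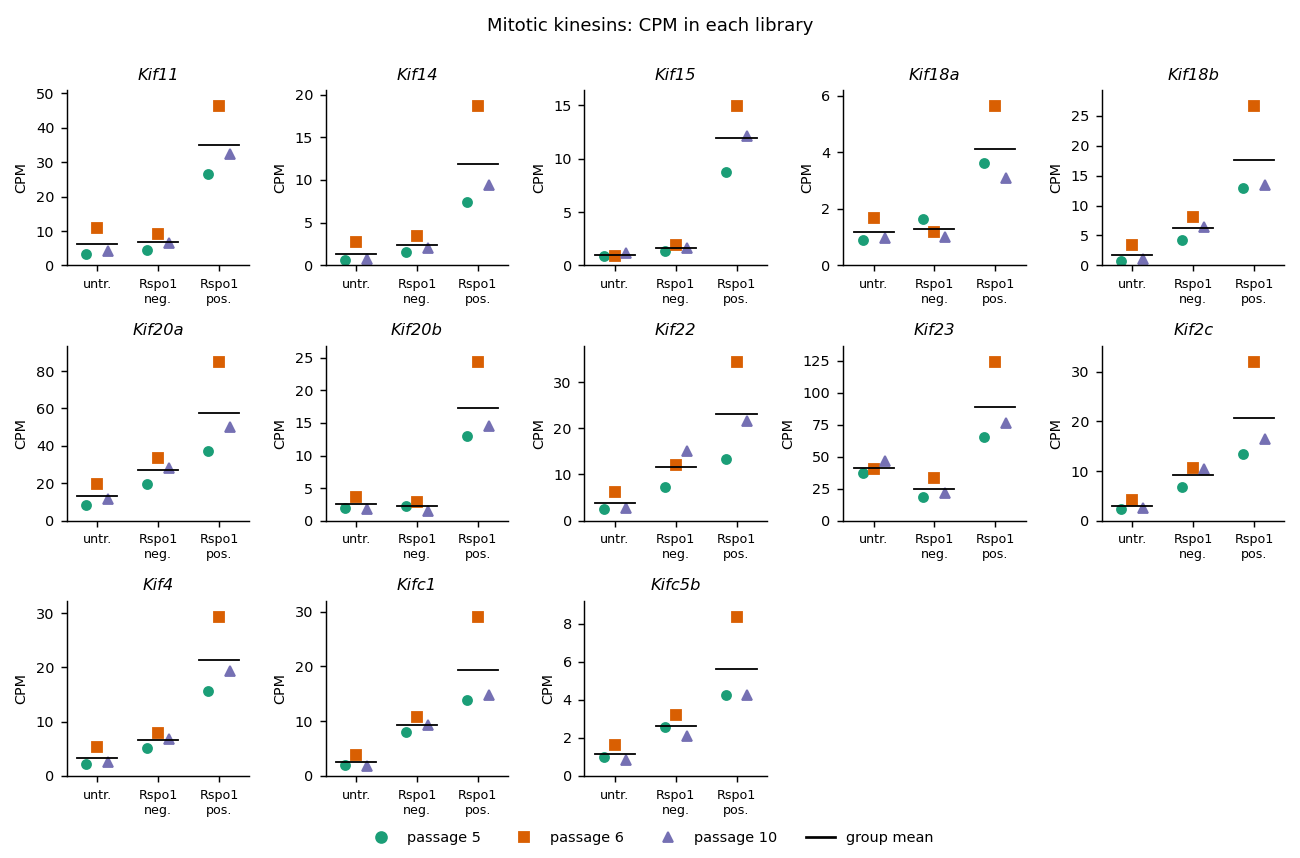
Level of each of the 13 mitotic kinesins (y axis, CPM, from 0) in the 9 libraries by group (x axis), with symbols for the passage and lines for the group mean. The Rspo1-positive points lie above all untreated points in every panel, the passage 6 point is the highest of the Rspo1-positive group, and for Kif23 the Rspo1-negative points lie below the untreated ones.

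The second question, with R-spondin 1 present in both groups, is how kinesins differ between reporter-positive and reporter-negative cells. Here too 13 of 13 mitotic kinesins were called higher, by 1.91-fold (Kif22) to 7.68-fold (Kif20b), where 38.9% of all genes were called, 21.5% higher and 17.4% lower. The median log2 fold change was 1.62 for mitotic and -0.13 for transport kinesins, and 0.030 over all genes tested. The mitotic median was 1.59, 1.86 and 1.51 within passages 5, 6 and 10, and 13 of 13 differences were above 0 in each. Kif20b (2.94), Kif15 (2.82), Kif11 (2.41), Kif14 (2.28) and Kif23 (1.84) had the largest values, and Kif22 (0.93), Kifc1 (0.95) and Kif20a (1.03) the smallest. With an offset for the GC content and length of the transcript the first 5 had 2.05, 2.17, 1.71, 1.62 and 1.61, the last 3 had 0.87, 1.26 and 0.92, Kif18b had 1.68 and Kif18a was the smallest at 0.60. Without the passage block 11 mitotic kinesins were called, and Kif18b (1.5, edgeR, adjusted p = 0.0518) and Kif22 (1.01, adjusted p = 0.103) were not. The authors' deposited table of this comparison has 13 of 13 mitotic kinesins higher.

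The third question is what R-spondin 1 went with in cells that do not carry the reporter. The Rspo1-negative group leaves out the reporter-positive cells of treated organoids, so selection by the gate and treatment cannot be told apart here either. In Rspo1-negative against untreated cells 9 mitotic kinesins were called higher, 1, Kif23, was called lower and 3 were not called, with 35.5% of all genes called, 15.5% higher and 20% lower. The median log2 fold change of the 13 was 1.03, and -0.0086 over all genes tested. Kif18b (2.06), Kifc1 (1.96), Kif22 (1.66) and Kif2c (1.66) had the largest rises, with adjusted p-values by edgeR of 0.000153 to 0.000561, followed by Kifc5b (1.21), Kif20a (1.09), Kif4 (1.03), Kif14 (0.91) and Kif15 (0.75). Kif23 fell by 0.81 (SE 0.17, edgeR, adjusted p = 0.0048). Kif11, Kif18a and Kif20b had values of 0.23, 0.18 and -0.14 (edgeR, adjusted p = 0.388, 0.666 and 0.621). Without the passage block 5 mitotic kinesins were called higher and none lower: Kif4 (0.96, edgeR, adjusted p = 0.0755), Kif14 (0.77, adjusted p = 0.349), Kif15 (0.76, adjusted p = 0.0706), Kif20a (1.04, adjusted p = 0.0595) and Kif23 (-0.76, adjusted p = 0.0611) missed the threshold. With 1 library removed at a time, 4 fits lost the call of Kif14, those without untreated passage 5 or 10 and without Rspo1-negative passage 5 or 10, with values of 0.74 to 0.85 and adjusted p of 0.0553 to 0.0659 by edgeR. For Kif15 the fits without untreated passage 6 and without Rspo1-negative passage 5 or 10 did so, with 0.56 to 0.83 and adjusted p of 0.0546 to 0.0954 by edgeR. Without untreated passage 6 Kif11 was called (0.56, edgeR, adjusted p = 0.013). With only the 6 libraries of this comparison 7 were called higher and 1 lower, and Kif14 (0.95, edgeR, adjusted p = 0.0565) and Kif15 (0.75, adjusted p = 0.119) were not called. The authors' deposited table of this comparison likewise has 7 mitotic kinesins higher and 1 lower, with Kif14 (adjusted p = 0.0917) and Kif15 (adjusted p = 0.255) past its threshold in neither direction. With passage 10 left out Kif23 had -0.64 (edgeR, adjusted p = 0.0546) and 7 mitotic kinesins were called higher.

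Set side by side, 9 of the 13 mitotic kinesins had untreated below Rspo1-negative below Rspo1-positive in all 3 passages, and 493 of all 17011 genes tested did (2.90%). The exceptions were Kif11 and Kif18a, with this order in 2 passages, Kif20b, with it in 1, and Kif23, with it in none. No transport kinesin and no other kinesin had this order in all 3 passages. The order was read from CPM without the offset for GC content and length. With the offset Kif11, Kif18a and Kif20b had 0.86, 1.18 and 0.71 in Rspo1-negative against untreated cells, and Kif23 had -0.67. The part of GC content in the order was not tested. Mitotic kinesins made up 6.28% to 10.4% of the summed kinesin FPKM in untreated libraries, 10.3% to 13.6% in Rspo1-negative and 18.6% to 32.8% in Rspo1-positive libraries. Kifc3, Kif1c and Kif5b were the highest kinesins per length in untreated cells, at 68.6, 49.1 and 38.5 FPKM, and together gave 51.7% to 55.8% of the summed kinesin FPKM there.

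Among the transport kinesins the Rspo1-negative group held the lowest levels of several motors. In Rspo1-negative against untreated cells 6 of 15 were called lower and 0 higher, with a median of -0.36, where 20% of all genes were called lower. In Rspo1-positive against Rspo1-negative cells 6 of 15 were called higher and 0 lower, where 21.5% of all genes were called higher. Both comparisons use the same Rspo1-negative libraries, and 5 genes, Kif5b, Kif3a, Kif16b, Kif1b and Kif3b, are among the 6 in each. The transport median in the latter comparison was 0.59, -0.22 and -0.22 within passages 5, 6 and 10, and in the fit it was 0.25 without Rspo1-negative passage 6, 0.16 without Rspo1-positive passage 10 and 0.11 with passage 10 left out, against -0.13 with all libraries.

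Kif5b, the broadly expressed heavy chain of conventional kinesin, which carries mitochondria, vesicles and lysosomes, stood at 267, 222 and 220 CPM in untreated, 98.7, 103 and 53.7 CPM in Rspo1-negative and 268, 203 and 221 CPM in Rspo1-positive cells. Every Rspo1-negative library lies below every other library, and untreated and Rspo1-positive libraries overlap. Its log2 fold change was -1.5 in Rspo1-negative against untreated (SE 0.18, edgeR, adjusted p = 0.000288), then 1.47 for Rspo1-positive against Rspo1-negative (SE 0.18, adjusted p = 0.000371) and -0.03 in Rspo1-positive against untreated cells (SE 0.18, adjusted p = 0.937). Kif3a, a subunit of the kinesin that drives transport into the cilium, stood at 44.4, 43.0 and 48.8 CPM in untreated, 25.2, 29.3 and 22.1 CPM in Rspo1-negative and 46.2, 45.6 and 43.9 CPM in Rspo1-positive cells. The same separation holds for Kif3a, with log2 fold changes of -0.84 (SE 0.13, edgeR, adjusted p = 0.000786) and 0.83 (SE 0.13, adjusted p = 0.000902). Kif3b, which pairs with Kif3a, stood at 64.4, 66.9 and 71.0 CPM, then 43.2, 55.2 and 60.1 CPM, then 64.9, 65.8 and 70.2 CPM, lowest in the Rspo1-negative libraries with a smaller gap (-0.36 and 0.35). With 1 library removed at a time, 5 of 9 fits lost the fall of Kif3b, those without untreated passage 5 or 10, Rspo1-negative passage 5 or 10 or Rspo1-positive passage 10, with -0.40 to -0.25 (edgeR, adjusted p of 0.0542 to 0.189). Its rise was lost in 6 of the 9 fits, 4 of them the same ones, namely those without untreated passage 5, Rspo1-negative passage 5 or 10 or any 1 Rspo1-positive library, with 0.24 to 0.39 (edgeR, adjusted p of 0.0551 to 0.195).

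Further carriers of vesicles and endosomes were called. Kif16b, a motor of early endosomes, stood at 48.0, 48.8 and 51.7 CPM in untreated, 24.2, 30.2 and 22.8 CPM in Rspo1-negative and 45.2, 42.9 and 48.0 CPM in Rspo1-positive cells, with log2 fold changes of -0.95 and 0.82 in the comparisons with Rspo1-negative cells (edgeR, adjusted p = 0.000445 and 0.000996). Kif1b, which carries mitochondria and synaptic vesicle precursors, stood at 90.3, 99.6 and 95.6 CPM, then 45.0, 68.9 and 48.4 CPM, then 89.9, 80.1 and 79.9 CPM (-0.83 and 0.64, edgeR, adjusted p = 0.00163 and 0.00578). In both genes the Rspo1-negative libraries are the lowest, with no overlap. Without Rspo1-negative passage 5 the rise of Kif1b was 0.51 and was not called (edgeR, adjusted p = 0.0537). Kif13a, a motor of recycling endosomes, stood at 52.2, 62.1 and 60.3 CPM in untreated, 37.7, 63.4 and 52.6 CPM in Rspo1-negative and 70.3, 74.4 and 72.8 CPM in Rspo1-positive cells. It rose by 0.53 against Rspo1-negative cells (edgeR, adjusted p = 0.0101), which was lost without Rspo1-negative passage 5 or 10 and without Rspo1-positive passage 5 (0.37 to 0.51, adjusted p of 0.052 to 0.0786) and without the passage block (0.50, adjusted p = 0.0567). Kif13b, its close relative, stood at 126, 131 and 153 CPM, then 81.8, 121 and 88.8 CPM, then 116, 98.3 and 89.1 CPM. It fell by 0.50 in Rspo1-negative against untreated cells (edgeR, adjusted p = 0.0346), which was lost without untreated passage 5 or 10 and without Rspo1-negative passage 5 or 10 (-0.55 to -0.34, adjusted p of 0.0727 to 0.194) and without the passage block (-0.49, adjusted p = 0.062).

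**Figure D3:**
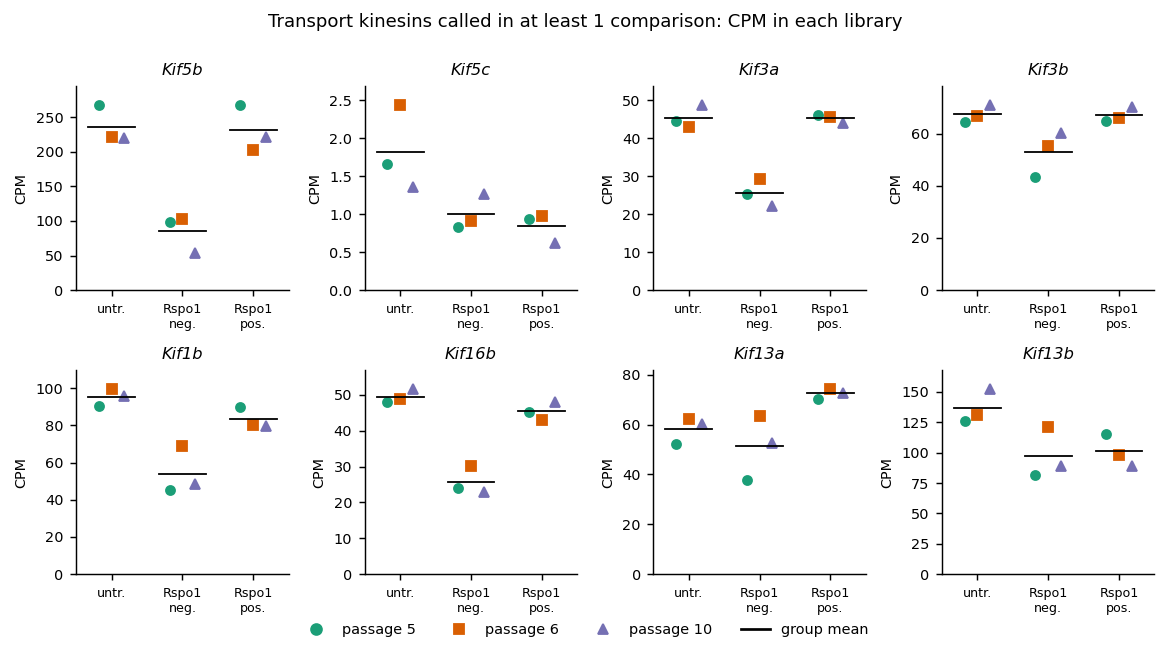
Level of the 8 transport kinesins called in at least 1 comparison (y axis, CPM, from 0) in the 9 libraries by group (x axis), with symbols for the passage and lines for the group mean. For Kif5b, Kif3a, Kif3b, Kif1b and Kif16b all 3 Rspo1-negative points lie below the points of both other groups.

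Kif5c, a conventional kinesin heavy chain best known from neurons, was the 1 transport kinesin called in Rspo1-positive against untreated cells. It stood at 1.66, 2.44 and 1.35 CPM in untreated, 0.825, 0.905 and 1.27 CPM in Rspo1-negative and 0.936, 0.978 and 0.616 CPM in Rspo1-positive cells. Its fall of 1.09 on the log2 scale (SE 0.32, edgeR, adjusted p = 0.0484) was lost on removal of any 1 library except Rspo1-negative passage 6 or 10 (7 of 9 fits), with -1.27 to -0.87 and adjusted p of 0.0511 to 0.211. It was lost as well without the passage block (-1.10, edgeR, adjusted p = 0.11). The other 7 transport kinesins, Kif1a, Kif1c, Kif3c, Kif5a, Kif17, Kifc2 and Kifc3, were called in no group comparison. For Rspo1-positive against Rspo1-negative cells, Kifc3 is lower in the authors' deposited table (-0.29, adjusted p = 0.0376 in that table). Kif1c, which carries vesicles to and from the cell edge, stood at 276 to 387 CPM over the 9 libraries and Kifc3, a minus-end motor at epithelial junctions, at 198 to 327 CPM. Of the 75-base stretches of Kif3c 42.8%, and of Kifc3 19.5%, occur in other genes, mostly on the opposite strand, and whether counting used the strand is not given in the sources used here.

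Of the 13 other kinesins 2 were called higher and 1 lower in Rspo1-positive against untreated cells, 4 higher and 1 lower against Rspo1-negative cells, and 1 higher and 3 lower in Rspo1-negative against untreated cells. Over all genes 13.2%, 38.9% and 35.5% were called in these comparisons, and in the latter pair the share of the other kinesins called is close to that background. Kif24, which sits on centrioles and holds back cilium growth, stood at 4.43, 4.45 and 6.88 CPM in untreated, 4.31, 4.98 and 5.97 CPM in Rspo1-negative and 11.5, 11.4 and 9.79 CPM in Rspo1-positive cells. It rose by 1.08 and 1.12 against the other groups (SE 0.20 in both, edgeR, adjusted p = 0.00399 and 0.0018), which overlap. Kif12, found in epithelium of kidney and bile ducts, stood at 38.7, 20.4 and 61.8 CPM in untreated, 52.7, 76.7 and 54.3 CPM in Rspo1-negative and 81.7, 101 and 74.7 CPM in Rspo1-positive cells. Its rise of 1.12 against untreated cells (SE 0.32, edgeR, adjusted p = 0.0395) was lost without untreated passage 5, Rspo1-negative passage 5 or Rspo1-positive passage 5 or 6 (0.93 to 1.19, adjusted p of 0.0683 to 0.179) and without the passage block (1.09, adjusted p = 0.091). In 2 other comparisons Kif12 was called once 1 untreated library was left out, at 0.50 against Rspo1-negative cells without untreated passage 6 (edgeR, adjusted p = 0.00989) and at 1.13 in Rspo1-negative against untreated cells without untreated passage 10 (adjusted p = 0.0134).

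Kif21a, which slows microtubule growth at the cell edge, stood at 50.5, 35.7 and 44.3 CPM in untreated, 24.4, 24.8 and 16.6 CPM in Rspo1-negative and 61.3, 52.6 and 52.2 CPM in Rspo1-positive cells (-0.99 and 1.34 in the comparisons with Rspo1-negative cells, edgeR, adjusted p = 0.000855 and 0.000271). Kif2a, a depolymerase that works at spindle poles and in resting cells, stood at 23.7, 19.4 and 21.6 CPM, then 11.9, 12.5 and 9.78 CPM, then 25.4, 19.3 and 25.9 CPM (-0.91 and 1.04, edgeR, adjusted p = 0.00151 and 0.000817). Both were lowest in all 3 Rspo1-negative libraries. Of the 75-base stretches of Kif2a 22.1% occur in its antisense neighbour Dimt1. Kif27, a relative of the ciliary kinesin Kif7, stood at 9.66, 12.3 and 13.9 CPM in untreated, 3.19, 6.46 and 3.09 CPM in Rspo1-negative and 6.89, 8.16 and 6.44 CPM in Rspo1-positive cells. Its fall of 1.55 in Rspo1-negative against untreated cells (SE 0.23, edgeR, adjusted p = 0.000633) held in all 17 alternatives. Its fall of 0.74 in Rspo1-positive against untreated cells (adjusted p = 0.0446 by edgeR) was lost on removal of 6 of the 9 libraries in turn, untreated passage 5 or 10, Rspo1-negative passage 5 or any 1 Rspo1-positive library (-0.88 to -0.49, adjusted p of 0.0681 to 0.211). Its rise of 0.80 against Rspo1-negative cells (adjusted p = 0.0167 by edgeR) was lost on removal of 3, Rspo1-negative passage 5 or 10 or Rspo1-positive passage 5 (0.58 to 0.71, adjusted p of 0.0959 to 0.109). Kif19a, a depolymerase that sets the length of motile cilia, stood at 5.23, 4.25 and 12.7 CPM, then 7.40, 7.61 and 15.5 CPM, then 5.71, 4.22 and 11.0 CPM, highest in the Rspo1-negative library of each passage. Its 2 called differences, 0.53 in Rspo1-negative against untreated and -0.57 in Rspo1-positive against Rspo1-negative cells (edgeR, adjusted p = 0.0283 and 0.0196), were lost without the passage block (0.46 and -0.54, adjusted p = 0.535 and 0.443). Removal of 1 library at a time ended them in 5 and 4 of 9 fits, in the former without untreated passage 5 or 6 or any 1 Rspo1-negative library (0.43 to 0.65, edgeR, adjusted p of 0.0503 to 0.108), in the latter without Rspo1-negative passage 5 or 6 or Rspo1-positive passage 6 or 10 (-0.64 to -0.45, adjusted p of 0.0539 to 0.0905). The remaining 7, Kif6, Kif7, Kif9, Kif21b, Kif26a, Kif26b and Kif28, were called in no group comparison.

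GC content of the transcript moved with the fold change wherever Rspo1-negative libraries were compared, and this touches several kinesins. Over 17001 genes, which are not independent of each other, the rank correlation of GC content with the log2 fold change was 0.499 in Rspo1-negative against untreated, -0.506 in Rspo1-positive against Rspo1-negative and -0.013 in Rspo1-positive against untreated cells. Across the 13 mitotic kinesins it was 0.896 in the first of these and 0.571 after an offset for GC content and length, and across the 15 transport kinesins 0.794 and 0.636. All points share the same libraries. The 3 mitotic kinesins not called in Rspo1-negative against untreated cells have the lowest GC content of the class, 38.2% (Kif18a), 39.4% (Kif20b) and 42.2% (Kif11). With the offset and the passage block they had 1.18, 0.71 and 0.86 (edgeR, adjusted p = 0.0238, 0.0263 and 0.0132), so that 12 of 13 were called higher. Kif23, with 46.3%, remained lower at -0.67 (edgeR, adjusted p = 0.0178). With the offset 12 of 13 mitotic kinesins were called in Rspo1-positive against Rspo1-negative cells, and Kif18a had 0.60 (edgeR, adjusted p = 0.157). In Rspo1-positive against untreated cells all 13 were called, with a median of 2.62.

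With the same offset the transport kinesins called in Rspo1-negative against untreated cells were 4 lower and 1 higher, where 20.9% of all genes were called. Kif5b, with a GC content of 41.1%, had -0.71 in place of -1.5 (edgeR, adjusted p = 0.0046), and 0.62 in place of 1.47 in Rspo1-positive against Rspo1-negative cells (adjusted p = 0.0088). Kif3a, with 47.6%, had -0.80 and 0.71 and stayed called in both (edgeR, adjusted p = 0.0026 in the second). The calls of Kif16b, Kif1b and Kif3b in Rspo1-positive against Rspo1-negative cells ended (0.28, 0.08 and 0.07, edgeR, adjusted p = 0.0675, 0.618 and 0.678), as did those of Kif3b and Kif13b in Rspo1-negative against untreated cells (-0.15 and -0.24, adjusted p = 0.345 and 0.152). Kif3c was called with the offset, at 0.33 in Rspo1-negative against untreated and -0.37 in Rspo1-positive against Rspo1-negative cells (edgeR, adjusted p = 0.0403 and 0.0234). Kif13b gained a call in Rspo1-positive against untreated cells (-0.47, edgeR, adjusted p = 0.0149). Of the other kinesins, Kif2a, with 38.6%, had -0.04 and 0.13 and lost both calls (edgeR, adjusted p = 0.858 and 0.485), Kif19a lost both as well (0.24 and -0.31, adjusted p = 0.323 and 0.182), Kif27 had 0.53 against Rspo1-negative cells (adjusted p = 0.0702) and Kif26a -0.83 there (adjusted p = 0.0412).

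**Figure D4:**
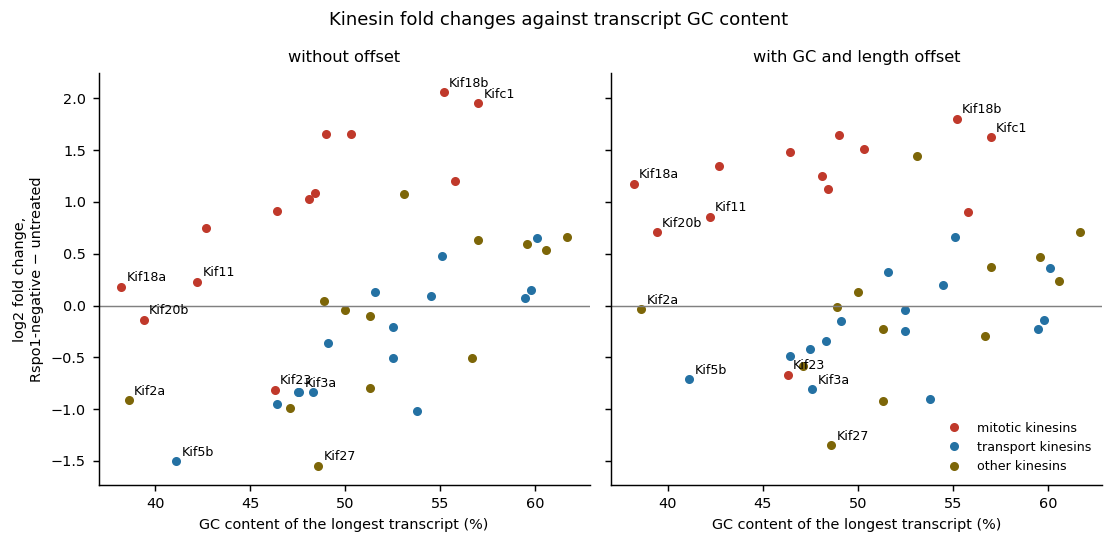
Log2 fold change of the 41 kinesins in Rspo1-negative against untreated cells (y axis) against the GC content of their longest transcript in percent (x axis), without (left) and with (right) an offset for GC content and length. In the left panel Kif18a, Kif20b and Kif11 lie near 0 at the low end of GC content, and in the right panel they lie at 1.18, 0.71 and 0.86, while Kif23 is below 0 in both.

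Levels of mitotic kinesins also varied with the passage. In the labels each passage is also 1 replicate number, so passage cannot be told apart from other differences between the replicates. The passage test called 14 of 41 kinesins, 10 of them mitotic, with 12% of all genes called. Passage 6 was above passage 5 by a median log2 difference of 0.93 over the 13 mitotic kinesins, and passage 10 above passage 5 by 0.33, against medians of 0.08 and 0.04 over the transport kinesins. Kif14 had the largest difference between passages 6 and 5, 1.45 (edgeR, adjusted p = 0.00367 over the 3 passages). Kif15, Kif18a and Kif23 were the 3 mitotic kinesins not called. Outside this class Kif3c, Kif6, Kif9 and Kif19a were called, Kif19a with a difference of 1.10 between passages 10 and 5 (edgeR, adjusted p = 0.00117). The number called was 5 without Rspo1-positive passage 6, 6 without Rspo1-positive passage 5 or without Rspo1-negative passage 5, 7 without untreated passage 5, 9 without untreated passage 10 or Rspo1-positive passage 10, and 17 without untreated passage 6. The 12% of all genes belongs to the fit with all libraries. Shares of all genes called by passage in the fits with 1 library removed are not given here, so these numbers are not set against a background.

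Genes whose products work with mitotic kinesins were compared in the same way. Of 15 such partners, chosen with earlier results of these data known, 14 were called higher in Rspo1-positive cells against either of the other groups, with medians of 2.76 and 1.35, and 12 were called higher and 1 lower in Rspo1-negative against untreated cells. Over all genes 6.44%, 21.5% and 15.5% were called higher in the 3 comparisons. Cenpe, the kinetochore kinesin whose symbol falls outside the naming rule, stood at 2.28, 7.22 and 2.94 CPM in untreated, 2.40, 6.67 and 3.13 CPM in Rspo1-negative and 22.8, 51.9 and 33.9 CPM in Rspo1-positive cells. Its log2 fold changes were 3.22 against untreated, 3.22 against Rspo1-negative and 0.01 between the other groups (edgeR, adjusted p = 3.6e-06, 8.37e-06 and 0.984). Mki67, a marker of cycling cells, had 3.59, 3.23 and 0.36 in the same order (edgeR, adjusted p = 3.6e-06, 2.85e-05 and 0.168). Mki67 does not stand for all 5 proliferation markers, of which 5, 3 and 4 were called higher in that order, with medians of 2.98, 1.31 and 0.73. In Rspo1-negative against untreated cells Mki67 had the lowest value of the 5 and was the 1 not called. Racgap1, which binds Kif23 in centralspindlin, rose in Rspo1-negative against untreated cells by 1.48 (edgeR, adjusted p = 0.000172), where Kif23 fell. The lower partner was Ckap5, a microtubule polymerase, with -0.98 (edgeR, adjusted p = 0.000583).

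Of 16 cargo adaptors and light chains of transport kinesins 1 was called in Rspo1-positive against untreated cells, where 13.2% of all genes were called. This was Klc4, which was lower by 0.57 on the log2 scale (-0.57, edgeR, adjusted p = 0.0059). In Rspo1-negative against untreated cells 4 were called higher and 2 lower, and in Rspo1-positive against Rspo1-negative cells 1 higher and 5 lower. With 35.5% and 38.9% of all genes called in these comparisons, the adaptors were called about as often as genes in general. Of the light chains that join Kif5b in conventional kinesin, Klc3 had 0.73 and Klc2 0.35 in Rspo1-negative against untreated cells (edgeR, adjusted p = 0.000769 and 0.0404), and Klc1 and Klc4 had 0.03 and -0.05 (adjusted p = 0.932 and 0.75). Kifap3, the third subunit of the ciliary kinesin formed by Kif3a and Kif3b, had -0.39 (edgeR, adjusted p = 0.0933). Trak2, a mitochondrial adaptor, was the 1 adaptor that rose in Rspo1-positive against Rspo1-negative cells, by 0.68 (edgeR, adjusted p = 0.00134). Of 18 tested subunits of dynein and dynactin, which move cargo the other way, 1 was called higher in Rspo1-positive against untreated cells, Nde1 (0.98, edgeR, adjusted p = 0.00267), a dynein regulator that also acts in mitosis. In Rspo1-negative against untreated cells 1 was called higher and 5 lower, with Dynlt3 the lowest (-1.04, edgeR, adjusted p = 0.000533), again close to the 35.5% of all genes. Of 12 tubulin genes 7 were called higher and 0 lower in Rspo1-negative against untreated cells, and 0 higher and 8 lower in Rspo1-positive against Rspo1-negative cells, where 15.5% of all genes were called higher in the former and 17.4% lower in the latter. In Rspo1-positive against untreated cells 2 were called higher and 1 lower, among them Tubb6 (1.22, edgeR, adjusted p = 0.00629) and Tubb3 (-2.0, adjusted p = 0.00224). Of all genes 6.44% were called higher and 6.77% lower in that comparison. Member values with the offset for GC content and length were taken for kinesins only. Over all genes the rank correlation with GC content was 0.499 in Rspo1-negative against untreated and -0.506 in Rspo1-positive against Rspo1-negative cells. Its part in the mitotic partner, adaptor, dynein and tubulin values was not tested.

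Some member values rest on shared sequence or few counts. Kif20a shares 29.3% and Kif4 15.4% of their 75-base stretches with the antisense genes Cdc23 and Pdzd11. Kif5a (at most 1.81 CPM), Kif17 (at most 1.06 CPM) and Kif26b (at most 1.06 CPM, with a count of 0 in untreated passage 6) had few counts in every library, and none of the 3 was called in a group comparison.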

How the data were processed

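RNA of 9 libraries (3 groups at 3 passages, 75-base single-end reads) was analysed from raw counts per gene deposited by the authors. Trimmomatic 0.35, FastQC 0.11.2, STAR 2.5.1b, featureCounts, DESeq2 and GRCm38 are named in the submitters' processing notes; the strand setting and the annotation are not given in the sources used here. Deposited FPKM values served for levels per length only. The authors' tables for the 3 comparisons, per the file headers, hold log2 fold changes, p-values, a score and a mean normalised signal. Counts of members past an adjusted p of 0.05 were taken from them, and the quoted values of Kif13b, Kif14, Kif15 and Kifc3. Counts were tested in R 4.3.3 with edgeR 4.0.16 (filterByExpr, minimum count 10, TMM, group and passage in the model, quasi-likelihood F-test, Benjamini-Hochberg adjustment over 17011 genes). The 17 alternatives were no passage block, DESeq2 1.42.0, RLE and upper-quartile scaling, no filter, only the 6 libraries compared, an offset for GC content and length (spline with 5 degrees of freedom), each library left out in turn, and passage 10 left out. The standard error is the log2 fold change divided by the square root of F. With passage in the model 4 residual degrees of freedom remain. The p-values rest on the spread of group differences from passage to passage in 1 animal's line. Differences between passages that the groups share are taken out. CPM use TMM-scaled library sizes. Passage numbers, from the labels, pair the libraries: after removal of group means the correlation was 0.123 to 0.573 in 9 pairs of the same passage and -0.476 to 0.0826 in 18 pairs of different passages. Replicates differed by a chi-square of 52.7 to 480 per gene, so no 2 were 1 library. On simulated data with 16719 genes, the test recovered 95% of genes changed by a log2 fold change of 1 and 100% at 2 in Rspo1-positive against untreated. The simulation gave all genes the same dispersion, changed only genes with a mean above 1 CPM and held no GC shift. Recovery for scarce genes or under the GC shift of the real libraries was not measured. GC content, length and shared 75-base stretches were computed on GENCODE transcripts for GRCm38. The members and lists were chosen with earlier results of these data known. All members may be named; values in every library are given for kinesins called in at least 1 comparison (in a class with over 12, the 12 with the largest fold change), and from the partner lists Cenpe, Mki67, the Klc genes, Kifap3, Axin2 and up to 2 called genes per list and comparison; Racgap1, Ckap5, Ptprc and Csf1r were added after their values were seen.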

Additional observations from a re-analysis of the deposited data

How the results depend on the processing

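Comparison A sets Rspo1-positive against untreated cells, B sets Rspo1-positive against Rspo1-negative cells and C sets Rspo1-negative against untreated cells. With no replicate block, in an unpaired analysis, 886, 4141 and 3724 genes were called in A, B and C, in place of 2247, 6624 and 6039 with the block. The transport kinesins called in A were then 0 and the other kinesins 1, the other kinesins called in B 3, and the mitotic kinesins called higher in C 5. The offset for GC content and length with the replicate block gave 4001 and 3550 genes in B and C, 2 transport kinesins in A, 3 and 2 other kinesins in B and C and a mitotic median of 1.37 in B. Kif20b changed there from -0.14 to 0.71 in C. Passage 10 left out, an alternative added after seeing the data, gave 1409, 3313 and 2546 genes, 0 and 3 transport kinesins in A and B and 3 other kinesins in B. In A the transport kinesins called were 0 with DESeq2 or upper-quartile scaling and 3 with no filter, which also gave 5 other kinesins. With only the 6 libraries of the comparison 8 other kinesins were called in B.

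Leaving out 1 library at a time gave 1112 to 2519, 3674 to 8264 and 3229 to 7427 genes in A, B and C. It gave 0 to 2 and 3 to 7 transport kinesins and 1 to 3 and 3 to 8 other kinesins in A and B, a mitotic median of 1.29 to 1.70 in B, and 5 to 17 kinesins called by passage. The number of genes moved by over 1.5 times in A without untreated passage 5 or any 1 Rspo1-positive library, in B without Rspo1-negative or Rspo1-positive passage 5 or 10, and in C without untreated or Rspo1-negative passage 5 or 10. Kifc2 ranged from -0.50 to 0.49 in C, against 0.07 with all libraries. The low value came without untreated passage 6, where Kifc2 was called lower in C (edgeR, adjusted p = 0.0199). That omission also gave Kifc2 a call in A (-0.62). The same omission added calls of Kif5a (-2.12 in A, -1.65 in C), of Kifc3 (-0.27) and Kif26a (-0.74) in B, of Kif28 (-1.0) in C and of Kif21b in B and C (0.37 and -0.78), where leaving out Rspo1-negative passage 6 did so too (0.58 and -0.69). Kif26b was called in A without untreated passage 10 (3.69) and Kif5c in C without Rspo1-negative passage 10 (-1.20). The cause was not tested. The mitotic kinesins called higher were 13 in A under each of the 17 alternatives, and 11 to 13 in B. Kif5a, Kif17 and Kif26b had few counts, and the part of depth in their values was not tested.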
